A study of Homo sapiens with 6 samples.

Results

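A set of 10 genes, 9 markers of the classical, glandular type of pancreatic cancer and the hormone gene GAST, was followed in AsPC-1 cells, an adenocarcinoma line of the human pancreas, by mRNA sequencing. The tested state was a block of glutamine use by the analog 6-diazo-5-oxo-L-norleucine, called DON, which disables enzymes that act on glutamine. There were 3 DON libraries and 3 vehicle libraries. Both groups spent 24 h without serum, so serum withdrawal is shared by the vehicle cells, and all libraries come from 1 cell line in culture. The genes were taken by name from the deposited table: the trefoil factors TFF1, TFF2 and TFF3, the hormone gastrin (GAST), the lysozyme LYZ, the lectins REG4 and LGALS4, and the adhesion molecules CEACAM1, CEACAM5 and CEACAM6. All 10 were found among 26228 rows, and all 10 passed the filter on low values. The labels do not say whether replicates were separate cultures, so the p-values reflect only how these libraries spread, which may be technical.

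Trefoil factors are small, cysteine-rich peptides that gut and gastric epithelia secrete together with mucins, where they help seal and repair the surface. REG4 is a secreted lectin of the gut, LYZ digests bacterial cell walls, and LGALS4 is a galectin that binds sugars on glycolipids and glycoproteins. CEACAM proteins are immunoglobulin-like surface molecules. CEACAM5 and CEACAM6 are held in the membrane by a glycolipid (GPI) anchor, whereas CEACAM1 crosses it and has an inhibitory tail in its long form. Gastrin is the hormone of the stomach's G cells that drives acid secretion, and tumours of the digestive tract can express its gene.

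The largest change among the 10 was a rise of GAST, which stood about 5 times higher with DON. LYZ, REG4, TFF3, TFF1 and CEACAM6 fell, by 1.89-fold to 2.54-fold. CEACAM5, LGALS4, TFF2 and CEACAM1 did not pass the test. Levels are in FPKM, that is, sequenced fragments per kilobase of a transcript, scaled to how many mapped. The test was limma on log2(FPKM + 1), two-sided, with Benjamini-Hochberg adjustment over 11468 genes and a threshold of 0.05. By it 1 member was higher and 5 were lower in DON. Of these 5, TFF1 and CEACAM6 did not pass when some single libraries were left out. Over all tested genes 38.9% were called, 18.3% higher and 20.6% lower, so the share called lower among the members stands beside a high background. The median log2 fold change was -0.58 over the 10 members and -0.01 over all tested genes. The groups did not overlap in 8 members, 1 higher and 7 lower, and in 51.5% of all tested genes, 25% higher and 26.5% lower.

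**Figure D1:**
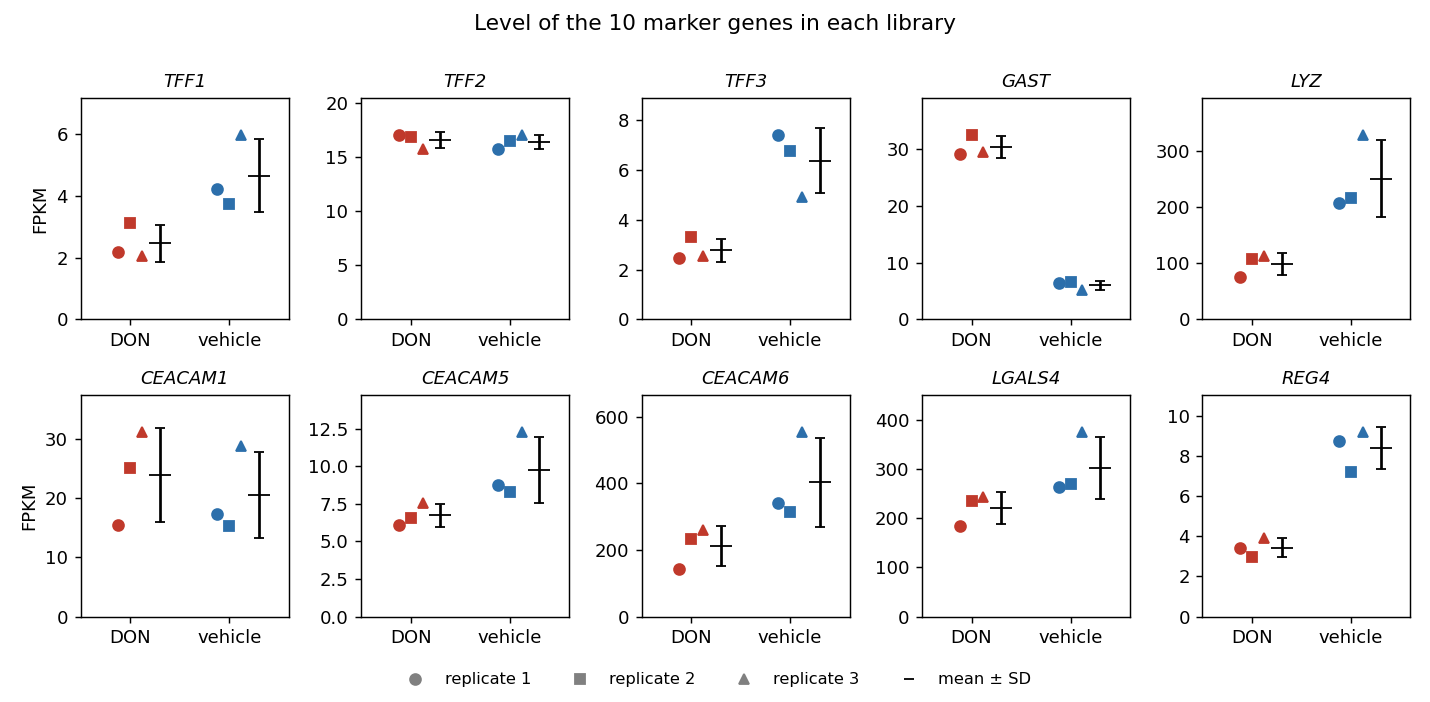
FPKM of each of the 10 genes (vertical axes start at 0 and differ between panels) in 3 DON libraries, in red, and 3 vehicle libraries, in blue, with the mean and SD in black. GAST runs from 29.1 to 32.6 FPKM in the DON libraries, against 5.10 to 6.58 FPKM in the vehicle libraries, and the TFF2 values of both groups lie between 15.7 and 17.1 FPKM.

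As transcripts per unit of length, 3 members were abundant and the others moderate or low. CEACAM6 at 212 ± 60.5 FPKM and LGALS4 at 221 ± 32.25 FPKM led in DON, and their ranges overlapped (mean ± SD, n = 3 for each mean in the text). In vehicle CEACAM6 led at 402 ± 132 FPKM, followed by LGALS4 and LYZ. The ranges of neighbours in this order overlapped too, but the order was the same within each vehicle library. The level of CEACAM6 exceeded that of 96.9% of tested genes in DON and 98.4% in vehicle. GAST exceeded 73.4% of tested genes in DON and 28.9% in vehicle. At the low end, TFF1, TFF3 and REG4 stood at 2.46 to 3.44 FPKM in DON, and their ranges overlapped. Values near 1 FPKM are compressed by the pseudocount, so the log2 changes of these 3 genes understate the change.

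The 250 bases before and 50 bases after the annotated start of GAST, REG4, CEACAM1 and CEACAM6 are shown because these genes cover the rise, a steady fall and the differing pair of the CEACAM group. They are from RefSeq (GRCh38.p14), which matched 6 of the 10 members, while the deposited values rest on hg19. GAST lies at chr17:41712081-41712380 on the plus strand, REG4 at chr1:119811411-119811710 on the minus strand, CEACAM1 at chr19:42528432-42528731 on the minus strand and CEACAM6 at chr19:41755280-41755579 on the plus strand. Each runs 5′ to 3′ along its gene, and capitals mark matches to the searched motifs.
GAST: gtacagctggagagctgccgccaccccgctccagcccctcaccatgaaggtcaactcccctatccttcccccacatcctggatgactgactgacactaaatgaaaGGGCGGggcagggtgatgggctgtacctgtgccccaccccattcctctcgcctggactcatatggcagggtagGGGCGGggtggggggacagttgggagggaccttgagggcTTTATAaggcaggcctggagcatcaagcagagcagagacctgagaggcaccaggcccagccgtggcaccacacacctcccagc
REG4: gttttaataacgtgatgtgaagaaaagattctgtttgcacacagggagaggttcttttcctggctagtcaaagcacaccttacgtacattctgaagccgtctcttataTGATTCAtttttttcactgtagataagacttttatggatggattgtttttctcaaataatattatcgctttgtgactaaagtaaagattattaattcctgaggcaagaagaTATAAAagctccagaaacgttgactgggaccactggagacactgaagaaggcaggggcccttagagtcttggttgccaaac
CEACAM1: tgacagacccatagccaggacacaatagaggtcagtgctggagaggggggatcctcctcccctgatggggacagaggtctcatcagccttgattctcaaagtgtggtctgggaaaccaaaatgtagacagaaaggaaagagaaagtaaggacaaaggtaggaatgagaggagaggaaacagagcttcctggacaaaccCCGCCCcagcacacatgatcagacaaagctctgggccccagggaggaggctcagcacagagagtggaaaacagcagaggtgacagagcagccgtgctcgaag
CEACAM6: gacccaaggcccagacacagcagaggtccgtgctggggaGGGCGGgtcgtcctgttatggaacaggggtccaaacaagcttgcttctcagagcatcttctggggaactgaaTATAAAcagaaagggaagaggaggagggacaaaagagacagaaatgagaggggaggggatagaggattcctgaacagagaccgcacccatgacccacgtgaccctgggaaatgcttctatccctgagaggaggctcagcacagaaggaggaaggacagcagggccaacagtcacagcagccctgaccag
The motifs, searched on both strands, were the TATA box (TATAAA), the CCAAT box (CCAAT), the GC box (GGGCGG), the AP-1 site (TGANTCA), the cyclic AMP response core (TGACGTCA) and the composite core bound by ATF4 (TGATGNAA). No 2 matches overlapped in these windows. GAST and REG4 each held a TATA match just before the start, at offsets of -33 and -31 bases. CEACAM6 held one farther out, at -139 bases. The GAST match was reversed, with TATAAA on the strand opposite to the gene, whereas those of REG4 and CEACAM6 ran along their genes. Along the gene the same place in GAST reads tttataagg, which holds tataag and not the full pattern. The strand of this match therefore gives no direction. A TATA match is present in 11.5% of all 35116 windows of this table. GAST also held 2 GC box matches, at -145 and -72, and CEACAM1 and CEACAM6 held 1 each, a motif present in 45.0% of windows. REG4 held a match to the AP-1 pattern TGANTCA, which leaves the middle base open, and the match read TGATTCA. This open pattern is present in 7.71% of windows. The CCAAT box, the cyclic AMP core and the ATF4 core, present in 34.6%, 1.85% and 3.62% of windows, matched in 0 of the 6 members. The windows of CEACAM1 and CEACAM6 were identical at 217 of 300 bases (72.3%) and those of CEACAM5 and CEACAM6 at 236 (78.7%). The alignment allows gaps, which raises identity between any windows. Pairs not made of 2 CEACAM genes ran from 52.7% (REG4 and GAST) to 60.7% (CEACAM6 and LGALS4).

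GAST, which encodes the gastrin precursor, had 29.1, 32.6 and 29.5 FPKM in DON libraries 1 to 3, against 6.34, 6.58 and 5.10 FPKM in vehicle libraries 1 to 3. Every DON library stood far above every vehicle library, and the spread within each group was small. The means were 30.4 ± 1.90 FPKM in DON and 6.01 ± 0.797 FPKM in vehicle, a 5.06-fold ratio. On the log2 scale GAST rose by 2.17 ± 0.11 (SE), at a limma adjusted p of 4.48e-05. Its size of change exceeded that of 99.5% of tested genes. The call held under each alternative that was run.

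Most other genes of the gastrin axis stood at or near the floor of the table. The gastrin receptor CCKBR and its relative CCKAR were listed at that floor, 0.01 FPKM, in all 6 libraries. The prohormone convertase PCSK1, which cuts progastrin, and the secretory granule protein CHGB were also at the floor in all 6. Another convertase, PCSK2, did not pass 0.0109 FPKM in any library. The trimming enzyme CPE averaged 0.0620 FPKM in DON and 0.119 FPKM in vehicle. Of 13 listed genes of the axis 3 were tested, with 0 higher and 1 lower. That gene was PAM, which amidates the end of gastrin and of many other peptides. It fell to 38.9 ± 2.65 FPKM in DON, against 67.4 ± 6.59 FPKM in vehicle (log2 fold change -0.78, limma adjusted p = 0.00136).

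In RefSeq GAST lies on chromosome 17 between EIF1, a translation initiation factor, and HAP1, a partner of huntingtin, and all 3 rose. Over all tested genes 18.3% were called higher, and a link between these neighbours was not tested. EIF1 stood at 876 ± 23.5 FPKM in DON and 436 ± 5.01 FPKM in vehicle (limma adjusted p = 0.000172). HAP1 stood at 6.38 ± 1.13 FPKM in DON and 1.56 ± 0.339 FPKM in vehicle (limma adjusted p = 0.000519). By Euclidean distance over the 6 centred log2 values, the tested genes most like GAST were DNAJB11 (0.16), HSP90B1 (0.26) and IGFBP1 (0.26). These 3 had log2 fold changes of 2.12, 2.05 and 2.26. The distance includes the difference between the groups, so fold changes near that of GAST follow from the choice.

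The trefoil factors did not move together. TFF3, the form typical of goblet cells, had 2.46, 3.32 and 2.54 FPKM in DON, against 7.41, 6.77 and 4.93 FPKM in vehicle. All DON libraries were below all vehicle libraries. TFF3 fell by 0.96 ± 0.16 on the log2 scale (limma adjusted p = 0.00437), with means of 2.77 ± 0.472 FPKM in DON and 6.37 ± 1.29 FPKM in vehicle.

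TFF1, the form of the gastric surface, had 2.19, 3.14 and 2.06 FPKM in DON, against 4.22, 3.73 and 5.98 FPKM in vehicle. The groups did not overlap, but the gap between DON 2 and vehicle 2 was narrow. TFF1 fell by 0.70 ± 0.19 on the log2 scale (limma adjusted p = 0.0241), with means of 2.46 ± 0.589 FPKM in DON and 4.64 ± 1.18 FPKM in vehicle. This call was lost without DON 1 (adjusted p = 0.0549), without DON 3 (0.0780) and without a filter on low values (0.130).

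TFF2, the form of gastric neck and gland cells, had 17.1, 16.9 and 15.8 FPKM in DON, against 15.7, 16.5 and 17.1 FPKM in vehicle. The groups overlapped throughout. The log2 difference was 0.01 with a 95% interval of -0.18 to 0.20 (limma adjusted p = 0.918). TFF2 was the most abundant trefoil transcript in both groups, and its spread within each group, 4.33% of the mean in DON and 4.01% in vehicle, was the smallest of the 10 members.

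The proportions between the trefoil transcripts were also compared. The TFF2 to TFF3 ratio was 6.95, 5.09 and 6.20 in DON, against 2.12, 2.44 and 3.46 in vehicle. The TFF2 to TFF1 ratio was 7.81, 5.39 and 7.67 in DON, against 3.73, 4.42 and 2.85 in vehicle. Neither ratio overlapped between the groups. TFF2 itself hardly changed, so these ratios largely restate the falls of TFF3 and TFF1. A ratio was computed for each of the 9 pairs within the trefoil, the CEACAM and the LYZ, REG4 and LGALS4 groups. This was done after earlier values were known. Of the 9 ratios 7 did not overlap between the groups, and the share over other gene pairs was not computed. The exact two-sided permutation test gave p = 0.1 for both trefoil ratios above, the smallest that 3 against 3 libraries allow (0.129 adjusted over the 9 pairs). The TFF3 to TFF1 ratio overlapped between groups, at 1.14 ± 0.0902 in DON and 1.46 ± 0.555 in vehicle (exact p = 0.4).

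The 3 trefoil genes sit side by side on chromosome 21, in the order TFF3, TFF2, TFF1, between ABCG1 and TMPRSS3 in RefSeq. ABCG1, a sterol exporter next to TFF3, rose to 14.9 ± 1.29 FPKM in DON, against 5.39 ± 0.217 FPKM in vehicle (limma adjusted p = 0.000143). TMPRSS3, a membrane protease next to TFF1, stood at 1.43 ± 0.0768 FPKM in DON and 1.81 ± 0.154 FPKM in vehicle (adjusted p = 0.173). The cluster thus held 1 gene that rose, 2 that fell and 2 that did not pass.

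**Figure D2:**
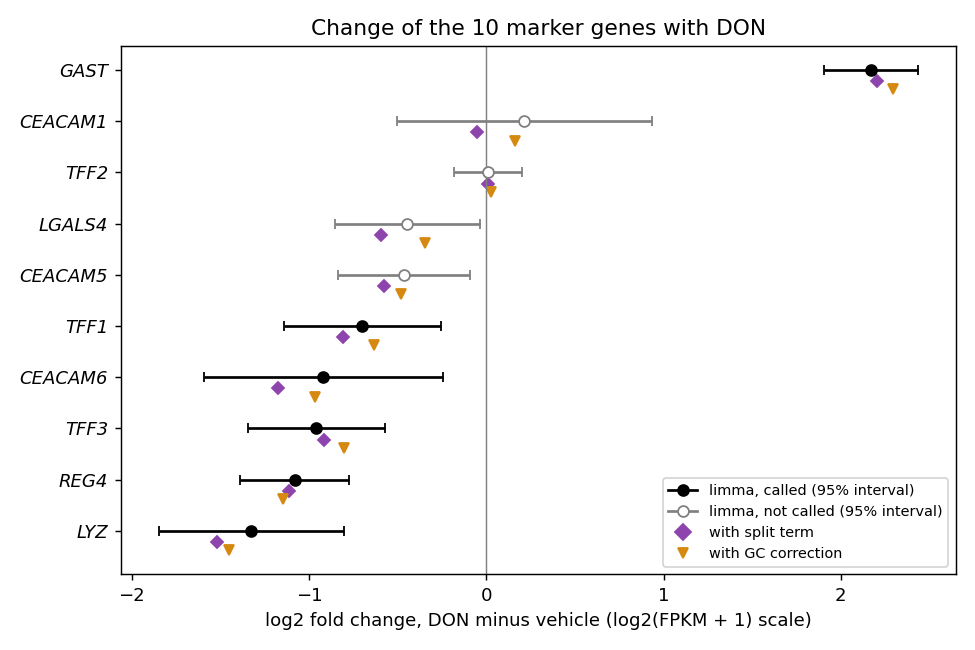
Log2 fold change of each gene, DON minus vehicle, on the log2(FPKM + 1) scale, with its 95% interval (circles, filled where limma's adjusted p was under 0.05), the estimate with a term for the library split (diamonds) and the estimate with a correction for GC content (triangles). GAST stands at 2.17 and LYZ at -1.33, at opposite ends, and the CEACAM1 estimate is 0.21 without and -0.05 with the split term.

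LYZ, the secreted lysozyme, had 75.6, 108 and 112 FPKM in DON, against 207, 215 and 328 FPKM in vehicle. The highest DON library was well under the lowest vehicle library. LYZ fell to a mean of 98.5 ± 19.9 FPKM in DON, against 250.3 ± 67.8 FPKM in vehicle (log2 fold change -1.33 ± 0.22 SE, limma adjusted p = 0.00394). It was the largest fall of the 10, 2.54-fold by the ratio of means. LYZ is also a gene of myeloid cells. Of 9 immune markers, 7 stayed under 1 FPKM in all libraries, and CSF1R, MPO and CD3E were at the floor on average in both groups. The immune list summed to 26.7 to 40.6 FPKM in DON and 17.6 to 28.8 FPKM in vehicle, most of it from CD68, at 32.8 FPKM in DON and 22.6 FPKM in vehicle. In bulk libraries fewer cells of a type and less RNA per cell cannot be told apart.

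REG4 had 3.42, 2.96 and 3.94 FPKM in DON, against 8.75, 7.20 and 9.21 FPKM in vehicle. Both groups were tight, and they were far apart. REG4 fell to 3.44 ± 0.488 FPKM in DON, against 8.39 ± 1.05 FPKM in vehicle (log2 fold change -1.08 ± 0.13 SE, limma adjusted p = 0.00104), and the call held under each alternative that was run. The LYZ to REG4 ratio overlapped between groups, at 29.002 ± 7.21 in DON and 29.7 ± 5.98 in vehicle (exact permutation p = 0.8).

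LGALS4 had 184, 235 and 243 FPKM in DON, against 263, 269 and 376 FPKM in vehicle. The groups did not overlap, but the step between them was small next to the spread. The means were 221 ± 32.25 FPKM in DON and 303 ± 63.3 FPKM in vehicle, and the log2 difference of -0.45 (95% interval -0.85 to -0.04) did not pass over all genes (limma adjusted p = 0.0803). With the split term, which sets vehicle 3, DON 2 and DON 3 apart from the other libraries, it passed as lower (adjusted p = 0.000175). The split was chosen after seeing these same libraries, so that p-value is no independent support. With the GC correction, LGALS4 did not pass, at a log2 difference of -0.34 (adjusted p = 0.209). The LGALS4 to LYZ ratio was steady within groups, at 2.43, 2.18 and 2.18 in DON and 1.27, 1.25 and 1.14 in vehicle. It did not overlap between them (exact permutation p = 0.1, the smallest possible, 0.129 adjusted). Among 13 other galectins 5 were tested, with 0 higher and 1 lower. That gene was LGALS2, at 101 ± 21.6 FPKM in DON and 191 ± 53.2 FPKM in vehicle (limma adjusted p = 0.0205). The 4 other REG genes and 8 of 9 other lysozyme family genes stayed under 1 FPKM in all libraries.

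CEACAM6 had 144, 232 and 260 FPKM in DON, against 339, 313 and 554 FPKM in vehicle. All DON libraries were lower than all vehicle libraries, although DON 1 and vehicle 3 stood apart from their groups. CEACAM6 fell by 0.92 ± 0.29 on the log2 scale, 1.90-fold by the ratio of means, at a limma adjusted p of 0.0404. The call was lost without DON 1 (0.0743), DON 2 (0.0789), vehicle 1 (0.0705), vehicle 2 (0.0513) or vehicle 3 (0.0782), without a filter (0.211) and with quantile normalization (0.0608), and its log2 fold change then ranged from -1.07 to -0.66.

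CEACAM5, the carcinoembryonic antigen used as a blood marker, had 6.08, 6.56 and 7.52 FPKM in DON, against 8.73, 8.26 and 12.3 FPKM in vehicle. The groups did not overlap, but the highest DON value lay close to the lowest vehicle value. The means were 6.72 ± 0.735 FPKM in DON and 9.76 ± 2.20 FPKM in vehicle, and the log2 difference of -0.46 (95% interval -0.84 to -0.09) missed the threshold (limma adjusted p = 0.0541). It passed as lower with the split term (0.00322) and with the GC correction (0.0380). Both were chosen after seeing these same libraries, so these p-values are no independent support.

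CEACAM1 had 15.4, 25.1 and 31.1 FPKM in DON, against 17.2, 15.3 and 28.7 FPKM in vehicle. Each group held low and high libraries, and the groups overlapped. The means were 23.9 ± 7.92 FPKM in DON and 20.4 ± 7.26 FPKM in vehicle, and the log2 difference was 0.21 with a wide 95% interval of -0.50 to 0.93 (limma adjusted p = 0.606). With the split term its sign turned, to -0.05 (adjusted p = 0.680). Single libraries also moved it: the difference was 0.49 without DON 1, 0.48 without vehicle 3, 0.15 without DON 2, 0.12 without vehicle 1, 0.04 without vehicle 2 and 0.0028 without DON 3, and none of these passed.

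CEACAM6 and CEACAM1 varied between libraries in nearly the same way, so their proportion was far steadier than either level. The CEACAM6 to CEACAM1 ratio was 9.31, 9.27 and 8.33 in DON, against 19.7, 20.5 and 19.3 in vehicle. The SD of this ratio was 6.16% of the mean in DON and 3.06% in vehicle, whereas that of the CEACAM6 level was 28.5% in DON and 32.9% in vehicle. The ratio was 2.21-fold lower in DON (exact permutation p = 0.1, the smallest possible, 0.129 adjusted over the 9 pairs). The CEACAM1 to CEACAM5 ratio was 3.50 ± 0.846 in DON and 2.05 ± 0.253 in vehicle, and the CEACAM6 to CEACAM5 ratio was 31.2 ± 6.53 in DON and 40.6 ± 3.91 in vehicle (both exact p = 0.1).

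**Figure D3:**
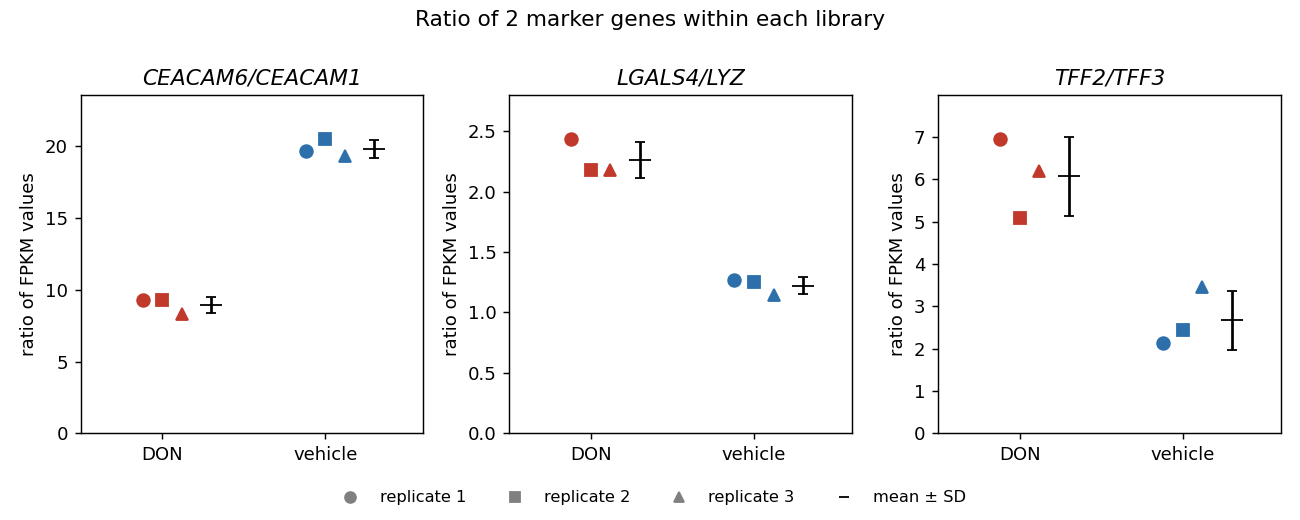
Ratio of the FPKM values of 2 genes within each library (vertical axes start at 0) for 3 DON libraries, in red, and 3 vehicle libraries, in blue, with the mean and SD in black. The panels show the CEACAM6 to CEACAM1, LGALS4 to LYZ and TFF2 to TFF3 ratios. They are taken from the 9 computed ratios, and all are among the 7 that did not overlap between the groups. The CEACAM6 to CEACAM1 ratio runs from 8.33 to 9.31 in the DON libraries, against 19.3 to 20.5 in the vehicle libraries.

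CEACAM genes are similar to each other, so shared reads could blur them. Of the 75-base windows in the coding transcripts of GENCODE 29, the length of the reads, 1.10% in CEACAM1, 16.2% in CEACAM5 and 2.69% in CEACAM6 also occurred in another gene. The windows of CEACAM5 were shared with AC243967.1, an annotated gene that overlaps both CEACAM5 and CEACAM6 on the same strand. LYZ shared 0.795% of its windows and the other 6 members shared 0. The other 9 CEACAM genes stayed under 1 FPKM in all libraries, with 4 of them at the floor. CEACAM1, CEACAM6 and LYZ also overlap annotated antisense genes. The kit marks strand, but whether counting used it is not given in the sources used here, so reads of those partners may be included. CEACAM1 also overlaps CEACAMP2, an annotated pseudogene on its own strand, which strand alone cannot set apart.

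The libraries within each group were not alike. Vehicle 3 was the highest vehicle library for 8 of the 10 members, and DON 1 was the lowest DON library for 7. Among vehicle libraries, CEACAM1, CEACAM6 and LYZ deviated from the group mean by 0.52, 0.51 and 0.42 (log2) in vehicle 3. TFF3 and GAST deviated by -0.30 and -0.19 there. Among DON libraries, CEACAM1 deviated by -0.54 and CEACAM6 by -0.51 in DON 1, and by 0.42 and 0.34 in DON 3. Across all genes vehicle 3, DON 2 and DON 3 leaned against GC-rich transcripts, with Spearman correlations between deviation and GC content of -0.40, -0.42 and -0.41 over 10894 genes. Vehicle 1, vehicle 2 and DON 1 leaned toward them, at 0.23, 0.31 and 0.51. Median transcript GC content was 41.4% for LYZ, 49.3% for CEACAM1 and 49.7% for CEACAM6, against 58.9% for GAST and 60.4% for TFF3, while LGALS4, at 57.9%, was high in the same libraries as LYZ. The part of GC content in these deviations was not tested.

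**Figure D4:**
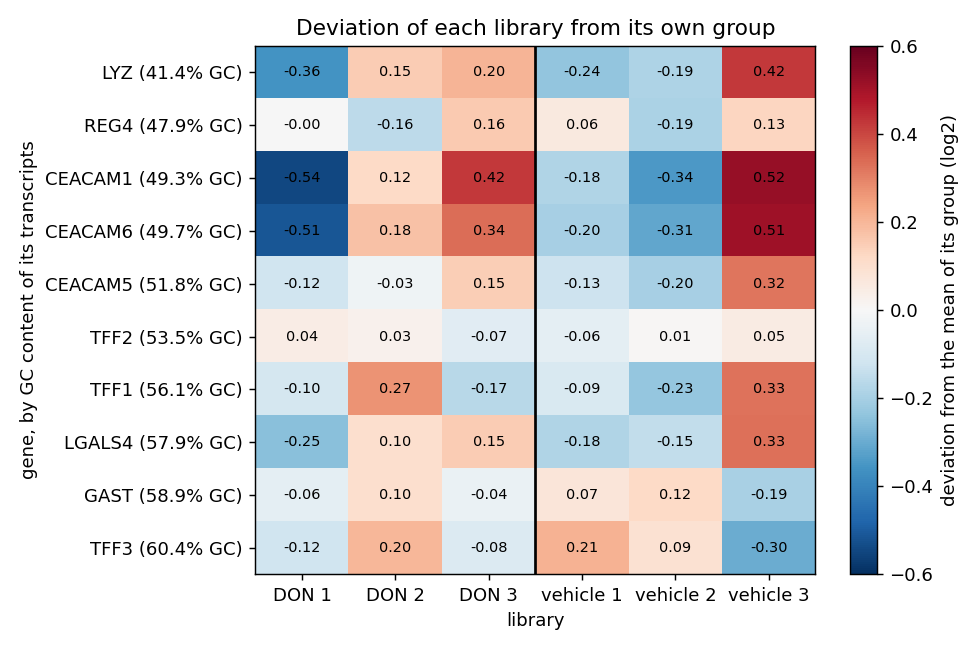
Deviation of each library from the mean of its own group, in log2(FPKM + 1), for the 10 genes ordered from low (top) to high GC content of their transcripts, with DON libraries left of the line and vehicle libraries right of it. CEACAM1 and CEACAM6 show the widest deviations, from -0.54 to 0.52 and from -0.51 to 0.51, and TFF2 the narrowest.

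Set within the 2 sides of this split, which the labels do not define, the falls of LYZ and CEACAM6 had nearly equal size. LYZ in DON 1 was 0.358 times its mean in vehicle 1 and 2, and in DON 2 and 3 it was 0.335 times its level in vehicle 3. For CEACAM6 these quotients were 0.441 and 0.444, for REG4 0.429 and 0.375, and for LGALS4 0.690 and 0.637. CEACAM1 had quotients of 0.950 and 0.979, TFF2 1.06 and 0.957, and GAST 4.51 and 6.09. For TFF3 they were 0.347 and 0.594, for TFF1 0.550 and 0.434, and for CEACAM5 0.715 and 0.573. With a term for the split, 1 member was higher and 7 were lower, where 52.6% of all tested genes were called. With the GC correction 1 was higher and 6 were lower, where 41.1% were called. Both terms were chosen after these libraries had been seen.

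Among other classical markers more fell than rose. The table held 24 of them and 13 were tested, of which 2 were higher and 8 lower (median log2 fold change -0.61), where 18.3% and 20.6% of all tested genes were called higher and lower. S100P, a calcium-binding protein, rose to 384 ± 55.1 FPKM in DON, against 111 ± 7.36 FPKM in vehicle. The iron exporter SLC40A1 fell to 17.4 ± 3.17 FPKM in DON, against 53.6 ± 6.53 FPKM in vehicle. The glutathione peroxidase GPX2 fell to 12.1 ± 5.08 FPKM in DON, against 42.6 ± 26.0 FPKM in vehicle, where vehicle 3 alone held 72.6 FPKM. Limma's adjusted p was 0.000134 for S100P, 0.000445 for SLC40A1 and 0.0233 for GPX2. The cadherin CDH17 carried failure marks in all 3 vehicle libraries and was not tested. It had 462, 565 and 547 FPKM in DON libraries 1 to 3.

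Genes that build or run the gut secretory cell, of which AGR2, AGR3 and SPINK4 are also classical markers, went both ways. Of 22 listed 8 were tested, with 4 higher and 2 lower (median log2 fold change 0.41), beside the same 18.3% and 20.6% over all tested genes. BHLHA15, a transcription factor of secretory cells, rose to 25.7 ± 6.43 FPKM in DON, against 1.56 ± 0.651 FPKM in vehicle. AGR2, a disulfide isomerase that folds mucins, rose 2.74-fold to 766 ± 92.2 FPKM in DON, against 280 ± 42.0 FPKM in vehicle. CREB3L1, a membrane-bound transcription factor, fell to 5.48 ± 0.849 FPKM in DON, against 16.4 ± 2.71 FPKM in vehicle. Limma's adjusted p was 0.000114 for BHLHA15, 0.000415 for AGR2 and 0.000549 for CREB3L1. The goblet cell products CLCA1 and ZG16 and the Paneth cell products DEFA5 and DEFA6 were at the floor in all 6 libraries.

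As a check of the label, the epithelial markers EPCAM, CDH1, KRT19 and KRT7 were each above 1 FPKM in all libraries. EPCAM stood at 1058 FPKM in DON and 1090.0 FPKM in vehicle. KRT8 and KRT18 carried failure marks. Endothelial and acinar markers, 4 and 6 genes, stayed under 1 FPKM in all libraries, as did 5 of 6 endocrine markers and 5 of 6 fibroblast markers. LUM, a matrix proteoglycan, was the exception among the last. It fell to 109.95 ± 19.2 FPKM in DON, against 153 ± 15.96 FPKM in vehicle (log2 fold change -0.48, limma adjusted p = 0.0388), and the fibroblast list summed to 88.8 to 124 FPKM in DON and 141 to 172 FPKM in vehicle. Its part in the falls of the members was not tested, and the defining collagen genes COL1A1, COL1A2 and COL3A1 averaged at most 0.0322 FPKM in DON and 0.144 FPKM in vehicle. FPKM values summed to 525200 to 556950 per library. They hold no counts, so absolute depth is unknown. Steps between low values of the same gene put the libraries at 1.25 to 1.70 times the depth of vehicle 1, the shallowest, from 46 to 72 genes at the commonest step.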

How the data were processed

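Poly(A) RNA of 6 AsPC-1 libraries was sequenced as single 75-base reads after 24 h of DON or vehicle, per the labels' protocols. The submitters' processing notes name STAR and hg19. The authors deposited FPKM values in a table with a row for each symbol and a column for each library. The sources used here do not give the program, the annotation, the strand setting or how libraries were scaled. The lowest value, 0.01, is a floor. Failure marks stood in 72 cells of 41 rows, and 4 rows shared a symbol. These rows were left out of the tests, and no member was among them.

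Values were taken as log2(FPKM + 1). A gene was tested where 3 or more of the 6 libraries reached 1 FPKM. The test was limma 3.58.1 (R 4.3.3) with an intensity trend and no block. It was also run on simulated data, with noise drawn independently for each gene. That simulation held none of the shared library differences seen here, so it does not show how the test behaves under them. Ratios of members were tested by exact permutation in scipy 1.17.1. Python 3.11.15, pandas 2.3.3, numpy 2.4.6, matplotlib 3.10.9 and Biopython 1.88 (global alignment of promoters) were also used. Columns headed control were taken as vehicle by their number.

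The members and gene lists were chosen with earlier results of these data known. The text names all members, and from each related list at most the 3 called genes with the largest change and at least 1 FPKM in the higher group. Genes at the floor, with failure marks, next to a member or marking other cells are named beside them. Of the tested genes 95.0% had a GC content, the median over their GENCODE 29 transcripts. The GC correction removed a loess (span 0.5) of each library's deviation on GC, and the split term set vehicle 3, DON 2 and DON 3 apart from the others. Both were chosen after seeing the data. Further alternatives changed the pseudocount (0.1), the filter (absent, or 5 FPKM), the scaling (median-of-ratios or quantile) or the variance trend, added a replicate block, or dropped a library.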

Additional observations from a re-analysis of the deposited data

How the results depend on the processing

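GAST, LYZ, REG4 and TFF3 kept their direction and their call in every alternative in which they were tested; TFF1 and TFF3 were not tested at a filter of 5 FPKM. The members called numbered 6, and 4 to 5 when 1 library was left out, with GAST higher each time. They numbered 4 without a filter (11.2% of all genes called) and 5 with quantile normalization (39.2%). The genes called over the whole table numbered 4457. They numbered 2941 without a filter, where 26183 genes were tested, and 2695 to 4655 when 1 library was left out, with 2695 without DON 2. The TFF2 difference had no stable sign, from -0.0165 to 0.0464 over the left-out libraries, with -0.00057 without DON 2 and -0.0088 without DON 1. That of CEACAM1 was -0.053 with the split term. The cause was not tested. Same-numbered libraries did not deviate together throughout, at correlations of 0.25, -0.18 and 0.50 for numbers 1, 2 and 3. A replicate block called 5412 genes (47.2%) and 8 members, with CEACAM5 (adjusted p = 0.0143) and LGALS4 (adjusted p = 0.0151) as lower. Without counts, the depth behind values of a few FPKM, as for TFF1, TFF3 and REG4 in DON, is unknown.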

Other observations

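Markers of the basal-like type, the counterpart of the classical type, also had more genes lower than higher. The table held 23 of them and 11 were tested, with 1 higher and 5 lower (median log2 fold change -0.33), where 18.3% and 20.6% of all tested genes were called higher and lower. FGFBP1, a carrier of fibroblast growth factors, fell to 9.90 ± 0.596 FPKM in DON, against 70.8 ± 2.51 FPKM in vehicle (limma adjusted p = 1.61e-05). LEMD1, a cancer-testis gene, fell to 0.718 ± 0.170 FPKM in DON, against 3.66 ± 0.549 FPKM in vehicle (adjusted p = 0.000429). AREG, a ligand of the EGF receptor, rose to 2.38 ± 0.187 FPKM in DON, against 0.714 ± 0.228 FPKM in vehicle (adjusted p = 0.00191). Keratins KRT6A and KRT6C were at the floor in both groups.

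The enzymes that assemble and attach the GPI anchor of CEACAM5 and CEACAM6 were called about as often as genes at large. Of 29 listed 28 were tested, with 3 higher and 6 lower (median log2 fold change -0.12), where 18.3% and 20.6% of all tested genes were called higher and lower, so the count shows nothing particular to the list. PIGA, of the enzyme that starts the anchor, rose to 8.08 ± 0.551 FPKM in DON, against 3.36 ± 0.446 FPKM in vehicle (limma adjusted p = 0.00061). PIGU, a subunit of the transamidase that attaches it, fell to 9.02 ± 1.496 FPKM in DON, against 21.4 ± 2.98 FPKM in vehicle (adjusted p = 0.00129). PIGQ, which works with PIGA, fell to 9.21 ± 1.08 FPKM in DON, against 20.0 ± 0.499 FPKM in vehicle (adjusted p = 0.000394).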
